A study of Caenorhabditis elegans with 6 samples.

Results

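The genes described here mark which transmitter a neuron of *Caenorhabditis elegans* makes and which kind of neuron it is. There are 30 of them among the 20392 genes of the deposited count table, taken by their WormBase symbols under a rule that uses no measured value, although the set was proposed with earlier results of these data known. Of these, 5 concern acetylcholine (synthesis, packaging, choline uptake and breakdown) and 4 GABA (synthesis, packaging and the transcription factor *unc-30*). Another 3 concern glutamate (packaging and receptors) and 7 the monoamines (synthesis, packaging and reuptake). The rest belong to the touch receptor neurons (7) or are further transcription factors that fix neuron identity (4). Total RNA had been sequenced from whole first-stage (L1) larvae. The 3 wild-type libraries came from strain N2. The 3 mutant libraries came from strain XA6227, labelled *mrg-1* -/-, whose larvae were the offspring of homozygous mutant mothers, picked as non-rollers from a balanced stock. Gene *mrg-1* encodes a chromodomain protein that binds chromatin. Each mutant library pooled the embryos of 2000 to 4000 hand-picked adults, and a like number of wild-type adults was washed off plates, so that genotype and the way of collecting cannot be told apart. Eggs of both groups were left 18 h in M9 buffer to hatch, followed by 2 h and 30 min of feeding, and libraries were made from 2 ng of RNA. The labels do not name the *mrg-1* allele, nor say whether libraries of a group came from separate cultures, so p-values measure the spread between these libraries, which may be technical.

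In the worm, as in other animals, a neuron uses a given transmitter when it makes the enzymes that synthesise it and the vesicular transporter that loads it into synaptic vesicles. These genes are switched on together by transcription factors known as terminal selectors, which also keep them on through life. The best studied case is the touch receptor neuron, where the POU factor UNC-86 and the LIM homeodomain factor MEC-3 act together on the genes of the touch-sensing channel and of the special microtubules of these cells. By hatching most neurons of the larva have been born and carry these features.

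Library totals were 19238422 to 39063186 counts, of which the 30 genes held 0.0517% to 0.0976%. The share of mitochondrially encoded genes was 10.6%, 23.1% and 45.6% in N2 libraries 1, 2 and 3 and 8.42% to 12.4% in the mutant. The *mrg-1* transcript stood at 30.2, 15.9 and 18.8 CPM (counts relative to library size after scaling by TMM factors) in N2 libraries 1, 2 and 3, and at 2.11, 5.61 and 5.15 CPM in mutant libraries 1, 2 and 3 (log2 fold change -2.33 with SE 0.53, edgeR quasi-likelihood adjusted p = 0.0413). That call was lost when wild-type library 1 or 2 or any mutant library was left out (edgeR adjusted p = 0.06 to 0.181), with library totals as the scale (0.105) and in limma on the authors' log2 values (0.0761). Neuronal RNA was present in every library: all 24 markers shared by neurons of all kinds, such as the synaptic vesicle gene *snb-1* and the syntaxin gene *unc-64*, passed the filter on low counts. Their summed level was 3749 to 4349 CPM in N2 larvae and 5041 to 5862 CPM in the mutant, so that the groups did not overlap. The neuropeptide processing gene *egl-3* alone had a mean of 1096 CPM in N2 larvae and 1757 CPM in the mutant. The median level of the 24 did overlap, at 94.3, 69.3 and 71.5 CPM in N2 libraries 1, 2 and 3 and 101, 94.7 and 85.6 CPM in mutant libraries 1, 2 and 3. Of the 24 log2 fold changes, 21 were positive (87.5%, against 48.7% of all genes tested), with a median of 0.32 and 0 called. In RNA of whole larvae, fewer cells of a type and less RNA per cell cannot be told apart.

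None of the 30 genes was called changed between mutant and wild-type larvae. All 30 passed the filter on low counts, and 0 had an adjusted p under 0.05 in edgeR's quasi-likelihood test, against 2.6% of all 13460 genes tested (350 genes). At an unadjusted p under 0.05 the count was also 0 in this fit, against 19.5% of all genes tested, and the smallest unadjusted p was 0.0573, for *tdc-1*. Other fits differed. At that p the count was 4 in limma-voom, 5 in limma on the authors' log2 values and 2 in DESeq2. In edgeR it was 6 without wild-type library 1 and 0 without wild-type library 2. The share of all genes tested at that p was not worked out for these fits. In 0 of the 30 did the libraries of one group all lie beyond those of the other, which was so for 26.4% of the genes tested. The count of called members was 0 in each of the 17 alternative analyses as well. Of all genes tested, those analyses called 2.59% (RLE size factors), 1.6% (library totals), 4.81% (scaling to the neuronal markers), 3.93% (no filter) and 3.1% (a 1 CPM filter). The share was 2.72% in limma-voom, 3.03% with quality weights, 3.2% with a replicate block, 2.82% without mitochondrial genes, 3.82% on the authors' log2 values and 9.79% in DESeq2. Leaving out wild-type library 1, 2 or 3 gave 7.32%, 0.576% and 2.83%, and leaving out mutant library 1, 2 or 3 gave 0.249%, 0.478% and 0.315%. In edgeR with TMM factors and all 6 libraries, the log2 fold changes ran from -1.08 (*tdc-1*) to 1.30 (*nmr-1*), with 21 positive (70.0%, against 48.7% of all genes tested), 9 negative and a median of 0.28, where the median of all genes tested was -0.03. The upper end depended on the tool: in limma-voom *nmr-1* had 3.52 and *tph-1* 3.46, neither called. With libraries scaled so that the median of the markers of all neurons was level, the median of the 30 was -0.06 and that of all genes tested -0.37. Scaled to library totals alone, the medians were 0.63 and 0.27.

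**Figure D1:**
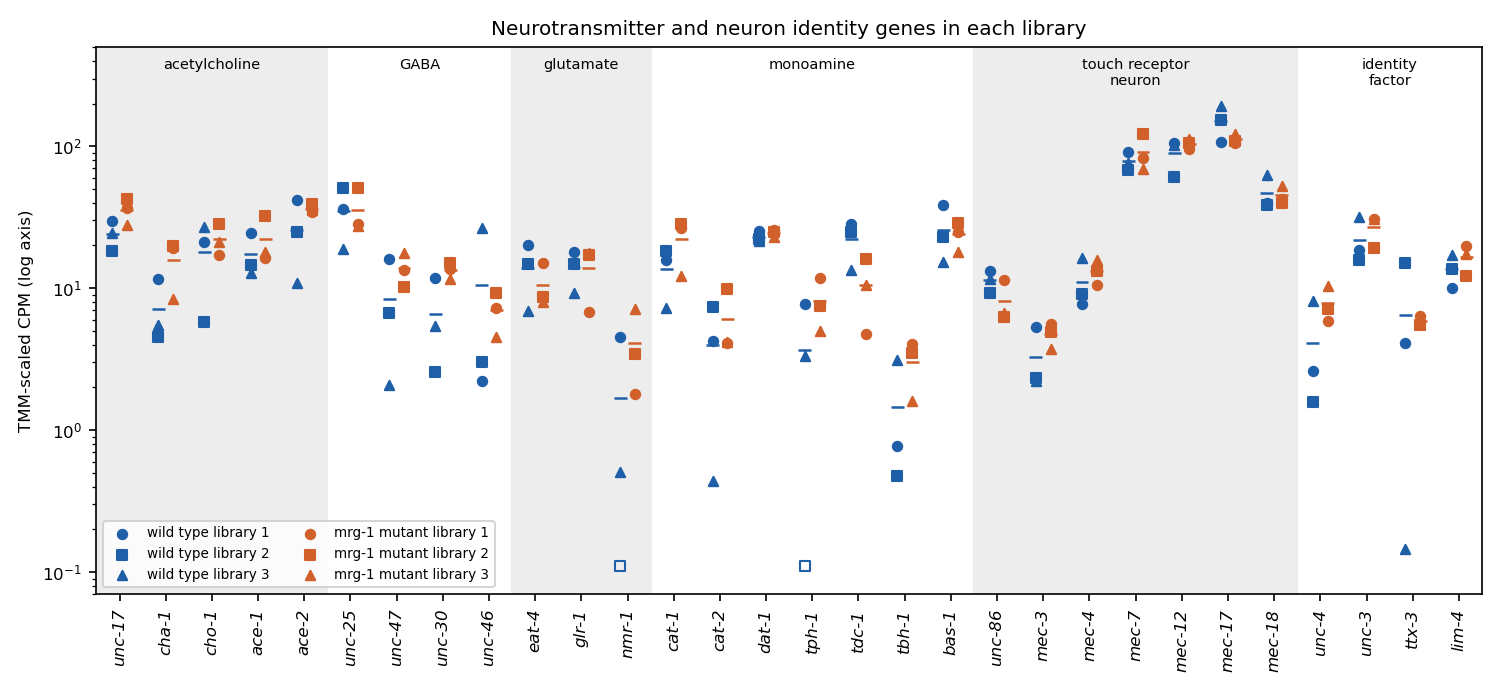
TMM-scaled CPM (log axis) of each of the 30 genes in each library, in the order of their roles; blue symbols are the 3 wild-type and orange symbols the 3 *mrg-1* mutant libraries, horizontal bars are group means (for *nmr-1* and *tph-1* the wild-type mean includes a library at 0), and open symbols mark libraries with 0 counts, drawn at 3 counts. The symbols of the groups overlap for every gene, and wild-type symbols are the more scattered for most.

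The absence of a call does not show that the levels were equal, and how much could be seen differed between the genes. For 5 genes the 95% interval of the log2 fold change, not adjusted for the number of genes, lay wholly within a 2-fold change in either direction: the GABA enzyme gene *unc-25*, the dopamine transporter gene *dat-1*, and the touch receptor genes *mec-7*, *mec-12* and *mec-18*. Such an interval was had by 10.8% of all genes tested. For 18 genes the interval lay within a 4-fold change. In the remaining 12 it reached past 4-fold in at least one direction: *cha-1*, *unc-47*, *unc-30*, *unc-46*, *nmr-1*, *cat-2*, *tph-1*, *tdc-1*, *tbh-1*, *mec-3*, *unc-4* and *ttx-3*.

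**Figure D2:**
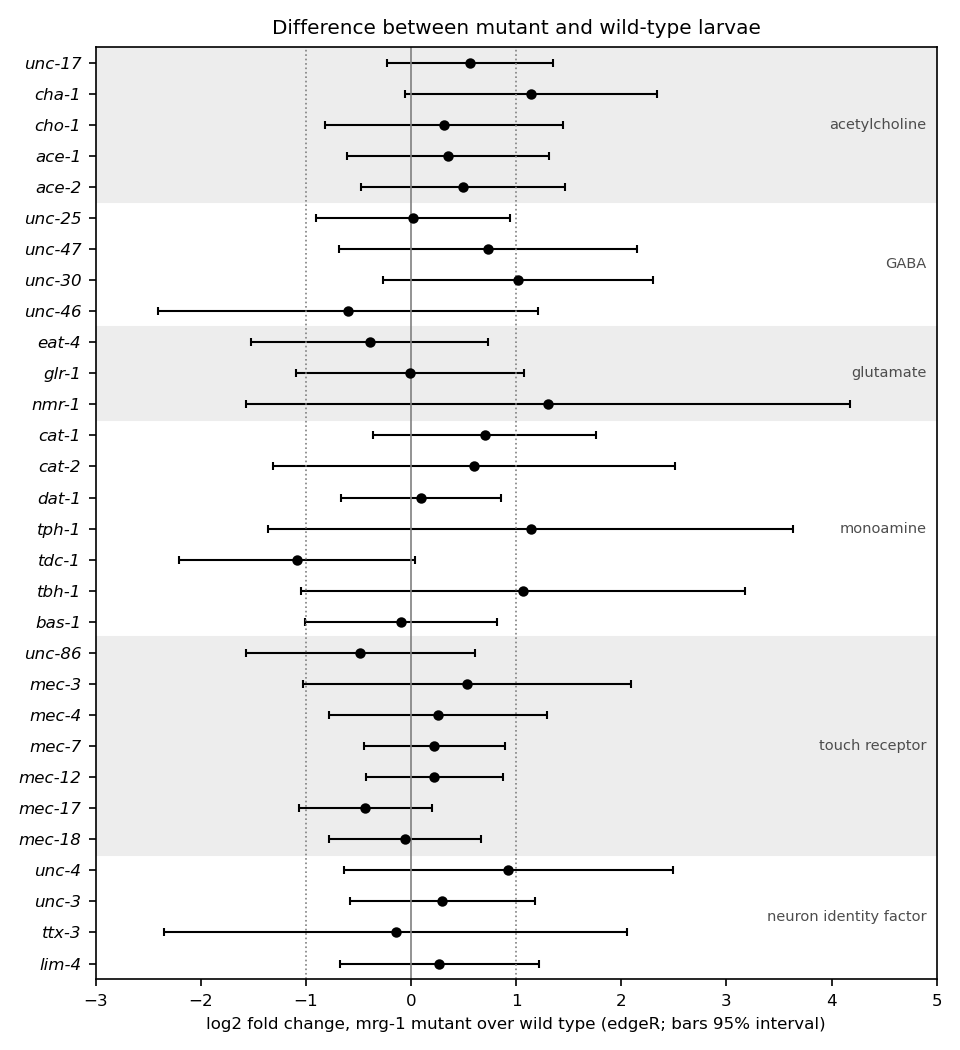
Log2 fold change of each gene (points; mutant over wild type, edgeR) with its 95% interval (bars), in the order of the gene's role; dotted lines mark a 2-fold change. Every interval includes 0, and those of *nmr-1* and *tph-1* are the widest, reaching 4.18 and 3.63.

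The 5 acetylcholine genes all had positive log2 fold changes, with 0 called. The vesicular acetylcholine transporter gene *unc-17* (chromosome IV, 3618259 to 3624699 in WBcel235) stood at 29.7, 18.4 and 24.4 CPM in N2 libraries 1, 2 and 3 and at 36.5, 42.6 and 27.7 CPM in mutant libraries 1, 2 and 3. The groups overlapped only where mutant library 3 fell below wild-type library 1. Its mean was 24.2 ± 5.66 CPM in N2 larvae and 35.6 ± 7.48 CPM in the mutant (SD, n = 3 each; log2 fold change 0.56 with SE 0.36, 95% interval -0.23 to 1.35, edgeR adjusted p = 0.421).

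The choline acetyltransferase gene *cha-1*, whose product makes the transmitter, lies in one locus with *unc-17* and shares 66 exonic bases with it on the same strand (chromosome IV, 3613931 to 3624697), so reads at the shared start cannot be assigned to one of them by position. Its levels were 11.6, 4.51 and 5.48 CPM in N2 larvae and 19.2, 19.9 and 8.34 CPM in the mutant. Mutant libraries 1 and 2 exceeded every wild-type library and mutant library 3 did not (log2 fold change 1.14 with SE 0.55, 95% interval -0.06 to 2.34, edgeR adjusted p = 0.277). The CPM of *unc-17* divided by that of *cha-1* was 2.56, 4.07 and 4.46 in N2 larvae and 1.9, 2.14 and 3.32 in the mutant, ranges that overlap. Leaving out wild-type library 1 gave *cha-1* a log2 fold change of 1.66 (edgeR adjusted p = 0.0962).

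The choline transporter gene *cho-1*, which recovers choline for synthesis, varied most among the 5 in the wild type, at 21, 5.79 and 27 CPM, with library 2 far below the others. In the mutant it stood at 17.3, 28.2 and 21.2 CPM (log2 fold change 0.31 with SE 0.52), and leaving out wild-type library 2 gave a log2 fold change of -0.12. Acetylcholinesterases break the transmitter down. *ace-1*, known from muscle, was at 24.5, 14.6 and 12.9 CPM in N2 larvae and 16.3, 32.2 and 17.9 CPM in the mutant. *ace-2*, known from neurons, was at 41.7, 25 and 11 and 34.6, 39 and 35.6 CPM. The 3 mutant values of *ace-2* lay close together inside the wild-type range, whose low end was library 3.

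Of 28 tested genes of acetylcholine receptors and their assembly and transport that are not among the 30, 0 were called in edgeR, with a median log2 fold change of 0.24. An unadjusted p under 0.05 was had by 19.5% of all genes tested, and in this list by 1 higher and 1 lower gene. These were the nicotinic receptor subunit gene *lev-1*, at 11.5, 6.12 and 10.7 CPM in N2 larvae and 31, 19.4 and 14 CPM in the mutant, and *nra-2*, whose product acts in receptor assembly, at 343, 238 and 179 and 129.8, 152 and 115 CPM. In both the groups did not overlap, but the edgeR adjusted p values were 0.192 and 0.109.

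Among the 4 GABA genes the enzyme had the highest level per kilobase, and its group means were nearly equal. *unc-25*, the glutamate decarboxylase gene that makes GABA, stood at 36, 50.5 and 18.8 CPM in N2 libraries 1, 2 and 3 and 28.2, 50.8 and 27.5 CPM in mutant libraries 1, 2 and 3. Both groups spanned much the same range, and the means were 35.1 ± 15.9 and 35.5 ± 13.3 CPM (SD, n = 3 each; log2 fold change 0.02 with SE 0.42, 95% interval -0.91 to 0.94). The vesicular GABA transporter gene *unc-47* was at 16.2, 6.75 and 2.08 CPM in N2 larvae and 13.4, 10.3 and 17.8 CPM in the mutant (log2 fold change 0.73 with SE 0.65), with wild-type library 3 the low value. Per *unc-47* CPM there were 2.23, 7.48 and 9.04 *unc-25* CPM in N2 larvae and 2.11, 4.95 and 1.55 in the mutant.

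The homeodomain gene *unc-30*, terminal selector of the D-type GABA motor neurons, was at 11.9, 2.57 and 5.4 CPM in N2 larvae and 13.6, 15 and 11.5 CPM in the mutant (log2 fold change 1.02 with SE 0.59, 95% interval -0.27 to 2.30, edgeR adjusted p = 0.367). The mutant libraries clustered near the level of wild-type library 1, while wild-type libraries 2 and 3 lay below. Leaving out wild-type library 1 gave a log2 fold change of 1.74 (edgeR adjusted p = 0.0879, the smallest of any of the 30 genes in any alternative). *unc-46*, a LAMP-like protein that sorts the GABA transporter to synaptic vesicles, stood at 2.21, 3.01 and 26.5 CPM in N2 larvae and 7.21, 9.24 and 4.54 CPM in the mutant. Here wild-type library 3 was 12 times library 1, and the log2 fold change was -0.60 over all libraries and 1.44 without it. It was positive in limma-voom and with a replicate block too. The same-strand neighbour *C04F5.2*, which shares 51 exonic bases with *unc-46*, stood at 0.769, 0 and 0.329 CPM in N2 larvae and 3.67, 0.495 and 2.14 CPM in the mutant. The part of shared reads in the levels of *unc-46* was not tested. The further GABA list of 12 tested genes, with the receptor *unc-49* and the transporter *snf-11*, had 0 called and a median log2 fold change of 0.35. At an unadjusted edgeR p under 0.05 it had 0, against 19.5% of all genes tested.

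The 3 glutamate genes did not share a direction. *eat-4*, the vesicular glutamate transporter gene that makes a neuron glutamatergic, stood at 20.2, 14.7 and 6.94 CPM in N2 libraries 1, 2 and 3 and 15.1, 8.74 and 8.04 CPM in mutant libraries 1, 2 and 3 (log2 fold change -0.39 with SE 0.52, 95% interval -1.52 to 0.74). Wild-type library 3 was below all mutant libraries and the other wild-type libraries were at or above most of them. *eat-4* overlaps *ZK512.2* on the opposite strand by 79 exonic bases, and *ZK512.2* was at 68.9, 79.6 and 41.5 and 42.5, 48 and 44.2 CPM, also lowest among wild-type libraries in library 3. The part of shared reads in either level was not tested, since the strand setting of the counting is not given in the sources used here.

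The AMPA-type receptor subunit gene *glr-1* had nearly equal group means, at 18.1, 14.7 and 9.27 CPM in N2 larvae and 6.79, 17.2 and 17.7 CPM in the mutant, means of 14 ± 4.44 and 13.9 ± 6.17 CPM (log2 fold change -0.01 with SE 0.50). The NMDA-type receptor subunit gene *nmr-1* had 94, 0 and 14 counts in N2 libraries 1, 2 and 3 and 46, 84 and 189 in the mutant, or 4.52, 0 and 0.511 and 1.79, 3.46 and 7.1 CPM. A count of 0 in wild-type library 2 allows a level of up to 0.11 CPM, counting error only, while library 1 of the same group stood above the mutant mean of 4.12 CPM. Its log2 fold change of 1.30 (SE 1.32) became 3.99 when wild-type library 1 was left out and 0.67 when mutant library 3 was.

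The further glutamate list held the one gene of all 6 transmitter and identity lists that was called in edgeR. *glc-1*, a subunit of the glutamate-gated chloride channel and a target of ivermectin, stood at 5.48, 2.35 and 4.05 CPM in N2 larvae and 17.4, 28.7 and 36.6 CPM in the mutant, and every mutant library exceeded every wild-type library. It rose from 3.96 ± 1.57 to 27.5 ± 9.68 CPM (SD, n = 3 each), 6.96-fold (log2 fold change 2.80 with SE 0.51, edgeR adjusted p = 0.0182). The call was lost without wild-type library 2 (edgeR adjusted p = 0.0632) and without mutant library 1, 2 or 3 (0.059, 0.0941 and 0.12), with log2 fold changes of 2.53 to 3.06, and held in the other alternatives. The 29 tested genes of this list had a median log2 fold change of 0.35. At an unadjusted p under 0.05, 2 were higher and 0 lower, against 19.5% of all genes tested in either direction. The other of these 2 was the glutamate transporter gene *glt-4*, at 8.79, 4.36 and 2.88 and 6.24, 16.7 and 18.1 CPM.

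The monoamine genes held both the steadiest and some of the least steady transcripts. *dat-1*, the dopamine reuptake transporter gene, was at 25.2, 22.3 and 21.5 CPM in N2 libraries 1, 2 and 3 and at 25.9, 24.9 and 23 CPM in mutant libraries 1, 2 and 3. All 6 values lay within 21.5 to 25.9 CPM (log2 fold change 0.10 with SE 0.35, 95% interval -0.67 to 0.86). *cat-2*, which encodes the tyrosine hydroxylase of dopamine synthesis and works in the same dopaminergic neurons, stood at 4.28, 7.33 and 0.438 CPM in N2 larvae and 4.09, 9.94 and 4.21 CPM in the mutant (log2 fold change 0.60 with SE 0.88). Wild-type library 3, with 12 counts, was the low value, 16.7 times below library 2. The CPM of *dat-1* divided by that of *cat-2* was 5.9, 3.05 and 49 in N2 larvae and 6.31, 2.51 and 5.46 in the mutant.

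Shared by dopamine, serotonin and the trace amines is the vesicular monoamine transporter of *cat-1*, which was at 15.9, 18.2 and 7.23 CPM in N2 larvae and 26.4, 28.4 and 12.2 CPM in the mutant (log2 fold change 0.70 with SE 0.49, 95% interval -0.36 to 1.76). Mutant libraries 1 and 2 exceeded all wild-type libraries. The aromatic amino acid decarboxylase gene *bas-1*, needed for dopamine and serotonin, was at 38.5, 23 and 15.4 and 24.9, 29 and 18 CPM, with the mutant values inside the wild-type range (log2 fold change -0.10 with SE 0.42). The tryptophan hydroxylase gene *tph-1*, which marks serotonin neurons, had 160, 0 and 92 counts in the wild type, 7.69, 0 and 3.36 CPM, and 11.7, 7.46 and 5.03 CPM in the mutant. The 0 of wild-type library 2 allows up to 0.11 CPM. Leaving out that library gave a log2 fold change of 0.55, against 1.14 (SE 1.15) over all 6 libraries. In limma-voom over all 6 libraries it was 3.46 (SE 1.44).

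Of the 30 genes, *tdc-1* had the most negative log2 fold change. Its product, tyrosine decarboxylase, makes tyramine, which *tbh-1*, the tyramine beta-hydroxylase gene, then turns into octopamine. *tdc-1* stood at 28.4, 24.8 and 13.4 CPM in N2 larvae and 4.8, 16.1 and 10.5 CPM in the mutant, means of 22.2 ± 7.83 and 10.5 ± 5.66 CPM (SD, n = 3 each; log2 fold change -1.08 with SE 0.52, 95% interval -2.21 to 0.04). Mutant library 2 lay above wild-type library 3, and the difference was not called (edgeR adjusted p = 0.271; 0.132 to 0.613 over the alternatives, those of limma and DESeq2 among them). *tbh-1* was at 0.769, 0.477 and 3.1 CPM in N2 larvae and 4.02, 3.51 and 1.61 CPM in the mutant, the other sign (log2 fold change 1.07 with SE 0.97), on 13 to 103 counts per library. Leaving out wild-type library 3 gave a log2 fold change of 2.31.

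*tdc-1* shares 73 exonic bases with *gei-14* on the opposite strand, and *gei-14* was at 4.9, 12.4 and 29.2 CPM in N2 larvae and 3.86, 9.28 and 4.43 CPM in the mutant, highest in the library where wild-type *tdc-1* was lowest. The part of shared reads in the levels of *tdc-1* was not tested. Of 28 further genes of monoamine receptors, transport, cofactor synthesis and breakdown, 0 were called in edgeR, with a median log2 fold change of 0.22. At an unadjusted p under 0.05 (19.5% of all genes tested), *comt-1*, of the catechol O-methyltransferase family, was higher (0.48, 0.33 and 0.219 CPM against 3.74, 1.4 and 1.8 CPM). The monoamine oxidase gene *amx-1* was lower (10.8, 11.4 and 20.5 against 2.34, 7.96 and 4.28 CPM), as was *pcbd-1*, of the pterin cofactor pathway (5.19, 29.4 and 21 against 6.82, 5.03 and 5.82 CPM). Their edgeR adjusted p values were 0.152 to 0.173, and in *pcbd-1* wild-type library 1 lay within the mutant range.

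**Figure D3:**
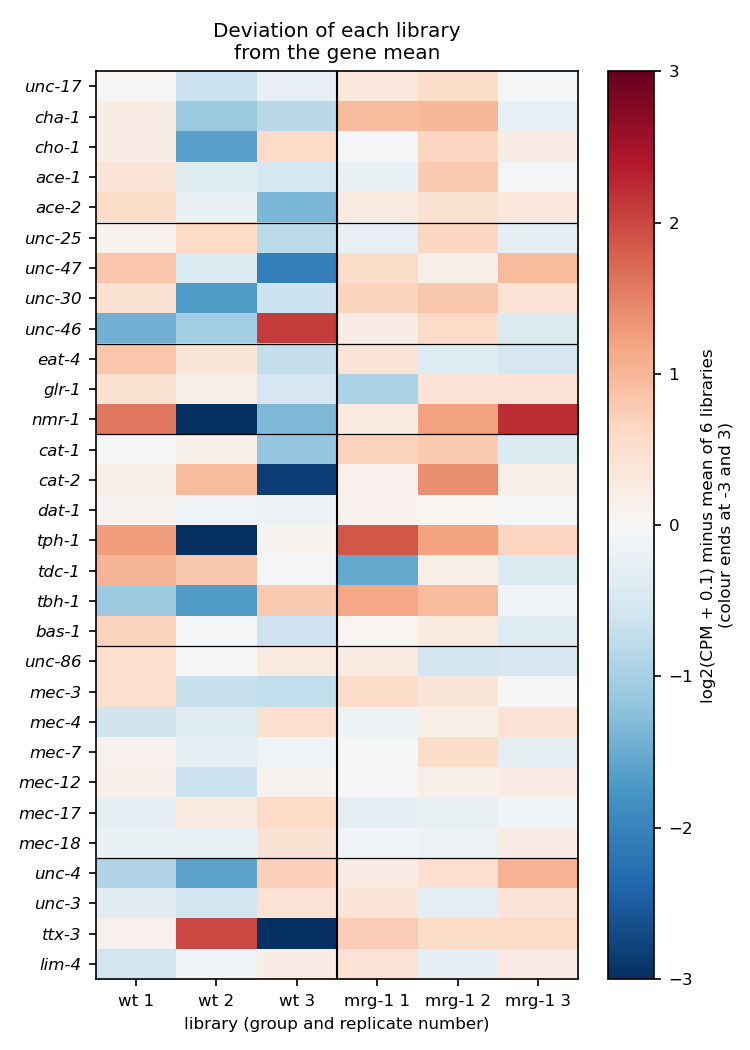
Log2(CPM + 0.1) of each gene in each library less the gene's mean over the 6 libraries; rows are genes in the order of their roles, columns are libraries (wild type left of the line, *mrg-1* mutant right), red is above and blue below the mean. The deepest blue fields are *nmr-1* and *tph-1* in wild-type library 2 and *ttx-3* and *cat-2* in wild-type library 3; the rows of *dat-1* and *mec-7* are pale throughout.

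The touch receptor genes included the 4 most abundant transcripts of the 30, and these varied little between libraries. Per kilobase of deposited gene length, the scale on which genes can be compared, wild-type means were 155 ± 44.4 CPM per kilobase for *mec-17* (alpha-tubulin acetyltransferase), 56.2 ± 15.5 for *mec-12* (alpha-tubulin), 50.2 ± 7.4 for *mec-7* (beta-tubulin) and 23 ± 6.63 for *mec-18*, another gene these cells need for touch (SD, n = 3). The wild-type libraries of *mec-17* all lay above those of *mec-12*, and those of *mec-7* above those of *mec-18*, while *mec-12* and *mec-7* overlapped. In the mutant the same 4 genes came in the same order, at 115 ± 8.79, 65.3 ± 5.25, 58.6 ± 17.9 and 22.1 ± 3.36 CPM per kilobase. They stood at the 73 to 96.1 percentile of wild-type levels per kilobase among all genes tested.

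*mec-7* was at 90.4, 67.5 and 76.5 CPM in N2 libraries 1, 2 and 3 and 82.4, 122 and 68.7 CPM in mutant libraries 1, 2 and 3 (log2 fold change 0.22 with SE 0.31, 95% interval -0.45 to 0.90). *mec-12* stood at 105, 61.1 and 103 and 95.7, 105 and 112 CPM (log2 fold change 0.22 with SE 0.30, 95% interval -0.43 to 0.87). In both, mutant and wild-type values interleaved. Tubulins form families of similar sequence, and how reads that match several genes were counted is not given in the sources used here, so both levels are uncertain to that extent. The broadly used tubulin genes *tba-1*, *tba-2*, *tbb-1* and *tbb-2* had log2 fold changes of -0.09, -0.51, -0.61 and -0.41, none called in edgeR.

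*mec-17* was at 107, 154 and 193 CPM in N2 larvae and 105, 109 and 121 CPM in the mutant, with the mutant values within 105 to 121 CPM and wild-type libraries 2 and 3 above them (log2 fold change -0.44 with SE 0.29, 95% interval -1.07 to 0.20, edgeR adjusted p = 0.441). Its neighbour *arf-5*, a small GTPase gene of the secretory pathway on the opposite strand, shares 51 exonic bases with it. *arf-5* stood at 297, 561 and 475 CPM in N2 larvae and 347, 295 and 312 CPM in the mutant, also with wild-type libraries 2 and 3 above the rest. Its part in the level of *mec-17* was not tested. *mec-18* was at 39.6, 38.6 and 62.5 CPM in N2 larvae and 42.4, 40.0 and 52.9 CPM in the mutant, level but for the high wild-type library 3 (log2 fold change -0.06 with SE 0.33, 95% interval -0.78 to 0.67).

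The channel and the regulators of these neurons were far lower. *mec-4*, the DEG/ENaC subunit of the touch-sensing channel, stood at 7.69, 9.17 and 16.5 CPM in N2 larvae and 10.6, 13.3 and 15.9 CPM in the mutant (log2 fold change 0.26 with SE 0.48). The mutant values of *mec-4* lay inside the wild-type range. *unc-86*, the POU factor gene, was at 13.3, 9.31 and 11.6 and 11.4, 6.31 and 6.72 CPM (log2 fold change -0.48 with SE 0.50, 95% interval -1.57 to 0.61), with mutant libraries 2 and 3 below every wild-type library. *mec-3*, its LIM homeodomain partner, was at 5.33, 2.35 and 2.23 and 5.62, 4.91 and 3.76 CPM (log2 fold change 0.53 with SE 0.72). The log2 fold changes of the regulators *unc-86* and *mec-3* thus had opposite signs and overlapping intervals, -1.57 to 0.61 and -1.03 to 2.09.

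A further 20 genes linked to touch receptor function had 0 called in edgeR and a median log2 fold change of -0.30, with 14 negative and 6 positive (30.0%, against 48.7% of all genes tested). Among the 20 are the broadly used tubulin genes *tba-1*, *tba-2*, *tbb-1* and *tbb-2*, whose log2 fold changes were all negative. The summed level of the 20 was 2439 to 2647 CPM in N2 larvae and 1972 to 2129 CPM in the mutant. The groups did not overlap, and the mutant sums were the lower, the opposite order to the sums of the markers of all neurons. How much of the sums these tubulin genes held was not worked out, so the sums do not measure touch receptor RNA alone. The stomatin-like gene *mec-2*, which modulates the channel, was at 83, 115 and 157 CPM in N2 larvae and 114, 95 and 80.8 CPM in the mutant, and the partner channel subunit gene *mec-10* at 5.91, 4.73 and 11.3 and 9.28, 11.6 and 5.71 CPM. At an unadjusted p under 0.05 (19.5% of all genes tested), 2 were higher: *atat-2*, the other alpha-tubulin acetyltransferase gene, at 5.04, 4.69 and 7.81 against 9.13, 15.4 and 20.1 CPM, and *ptl-1*, the tau-like microtubule protein gene, at 25.1, 12.1 and 11.8 against 24.2, 56.3 and 26.9 CPM. Their edgeR adjusted p values were 0.178 and 0.2. The values of *mec-2*, *mec-10* and of the tubulin genes above were given by choice after they were seen, the others by a rule.

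By the WBcel235 annotation, 13 of the 30 share exonic bases with another gene of the count table. Not every such partner is named here. The longest overlaps were 372 bases of *tbh-1* with *H13N06.7* and 221 bases of *mec-18* with *C52B9.10*, both on the opposite strand. *ace-2* shares 42 with *Y44E3A.7*, which was not analysed here. Without a known strand setting, reads from such pairs cannot be told apart. *aak-2*, an AMP-activated kinase gene that overlaps *mec-4* by 78 bases on the opposite strand, was far above it, at 187, 163 and 59.6 CPM in N2 larvae and 182, 284 and 219 CPM in the mutant. *Y53G8B.1*, opposite *mec-12* over 76 bases, was at 10.7, 18.2 and 23.3 and 7.25, 9.94 and 7.14 CPM, with groups that did not overlap. *ZK1290.10*, opposite *tph-1* over 43 bases, was at 0.769, 0 and 0.438 and 5.03, 2.52 and 4.17 CPM (log2 fold change 3.28, edgeR adjusted p = 0.168), listed at 0 in the same N2 library 2 as *tph-1*. None of these partners was called in edgeR, and their part in the members' levels was not tested.

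Of the 4 other identity factors, *unc-3* and *lim-4* were steady and *ttx-3* was not. *unc-3*, the COE-type selector of cholinergic motor neurons, stood at 18.6, 15.8 and 31.6 CPM in N2 libraries 1, 2 and 3 and 30.9, 19.3 and 30.9 CPM in mutant libraries 1, 2 and 3 (log2 fold change 0.30 with SE 0.41, 95% interval -0.58 to 1.18). *lim-4*, a LIM homeodomain gene that sets the fate of the AWB olfactory neurons, was at 10.0, 13.7 and 17.3 and 19.8, 12.2 and 17.5 CPM (log2 fold change 0.27 with SE 0.44, 95% interval -0.68 to 1.22). For both genes wild-type and mutant values interleaved. The homeodomain gene *unc-4*, which sets the synaptic inputs of VA motor neurons, was at 2.59, 1.58 and 8.18 and 5.89, 7.13 and 10.4 CPM (log2 fold change 0.92 with SE 0.72), with wild-type library 3 among the mutant values and libraries 1 and 2 below them. Leaving out wild-type library 3 gave a log2 fold change of 1.93.

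*ttx-3*, the LIM homeodomain selector of the AIY interneurons, had 86, 413 and 4 counts in the wild type, 4.13, 15.1 and 0.146 CPM, a span of 103.7 times. In the mutant it was at 6.4, 5.53 and 5.63 CPM, a span of 1.16 times. The mutant values lay close together between wild-type libraries 1 and 2. The log2 fold change of -0.15 (SE 1.01) was 1.45 without wild-type library 2.

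Among 37 further tested factors of neuron fate, 0 were called in edgeR and the median log2 fold change was -0.03. At an unadjusted p under 0.05, 1 was higher and 3 were lower, against 19.5% of all genes tested in either direction. The homeobox gene *ceh-63* was at 0.577, 0.0733 and 0.073 CPM in N2 larvae and 2.85, 4.33 and 4.73 CPM in the mutant (edgeR adjusted p = 0.0783). Lower were *hlh-2*, the E-protein partner of proneural factors, at 19.6, 26.7 and 48.4 against 11.1, 13.4 and 11.3 CPM, the Groucho-type corepressor gene *unc-37*, at 68.4, 71 and 68.9 against 31.4, 35.5 and 52.5 CPM, and the proneural gene *cnd-1*, at 0.288, 4.88 and 2.96 against 0, 0.247 and 0.451 CPM. The edgeR adjusted p values of these 3 were 0.1 to 0.198. In *hlh-2* and *unc-37* the groups did not overlap. DESeq2 called 2 of these 37, *ceh-63* and *hlh-2*, and limma-voom 0. In the acetylcholine, GABA, monoamine and touch receptor lists DESeq2 and limma-voom called 0, and in the glutamate list *glc-1* alone.

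The 30 genes, like most genes tested, differed more between the wild-type libraries than between the mutant ones. The SD of log2 CPM was larger in the wild type for 25 of the 30 (83.3%), which was so for 73.2% of all genes tested. The median SD was 0.70 in N2 and 0.41 in the mutant, against 0.72 and 0.42 over all genes tested. It exceeded 1 for 10 genes in N2 and for 0 in the mutant, a count not made over all genes tested. A count of 0 in any of the libraries was had by 2 of the 30 (6.67%), against 8.06% of all genes tested. In 5 genes the highest wild-type library was at least 10 times the lowest, or the lowest was 0, a count also not made over all genes tested: *unc-46*, *nmr-1*, *cat-2*, *tph-1* and *ttx-3*. The library that stood apart was not the same in these genes. It was library 2 at 0 for *nmr-1* and *tph-1*, library 3 low for *cat-2* and *ttx-3*, and library 3 high for *unc-46*. By role, the median wild-type SD was 0.43 for the touch receptor genes, 0.71 for the acetylcholine and 0.71 for the monoamine genes, 0.79 for glutamate, 0.86 for the identity factors and 1.27 for GABA. The mutant libraries also resembled each other more across all genes, with correlations of log2 CPM of 0.928 to 0.94, against 0.86 to 0.888 in N2.

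**Figure D4:**
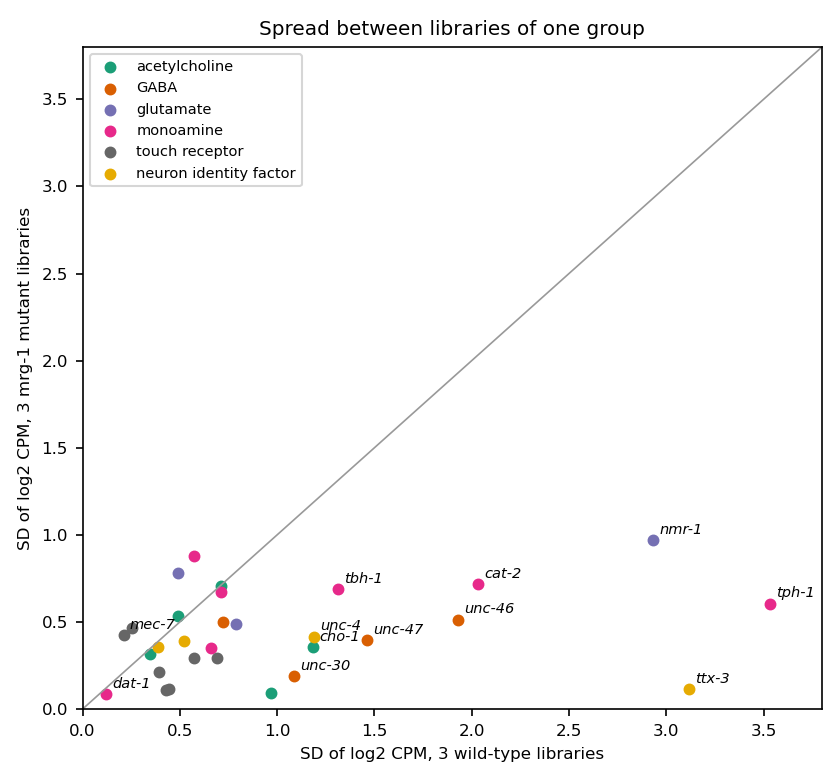
SD of log2 CPM over the 3 wild-type libraries (horizontal axis) and over the 3 *mrg-1* mutant libraries (vertical axis) for each of the 30 genes, coloured by role; the line marks equal SD. Most points lie below the line, with *tph-1* (3.53 against 0.61), *ttx-3* (3.12 against 0.11) and *nmr-1* (2.93 against 0.97) far to the right and *dat-1* near the origin.

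Levels per kilobase put 13 of the 30 above the median of all genes tested in the wild type. After the 4 touch receptor genes came *unc-25* at 20.2 ± 9.14, *bas-1* at 15.4 ± 7.07, *lim-4* at 12.8 ± 3.38, *unc-17* at 12.7 ± 2.97 and *dat-1* at 10.8 ± 0.927 CPM per kilobase (SD, n = 3). Lowest were *tph-1* at 1.98 ± 2.07, *tbh-1* at 0.667 ± 0.662 and *nmr-1* at 0.515 ± 0.761. In this order 27 of the 29 pairs of neighbours overlapped in their wild-type libraries, so only the steps from *mec-17* to *mec-12* and from *mec-7* to *mec-18* exceeded the spread. The deposited lengths equal the exonic length of the WBcel235 annotation for 1 of the 30 genes and were 0.641 to 1.38 times it for all of them, which carries over to these levels.

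Since the summed level of the markers of all neurons did not overlap between the groups, although 0 of the 24 were called, each gene was also set against their median in the same library, as log2(CPM + 0.1) less the median log2 CPM of the 24 markers. That median itself did overlap between the groups. On this scale the groups did not overlap for 3 of the 30 genes, where 27.3% of all genes tested did not, so the share among the 30 is below that background. *unc-30* was higher, at -2.98, -4.70 and -3.70 in N2 libraries 1, 2 and 3 and -2.87, -2.64 and -2.88 in mutant libraries 1, 2 and 3. *tdc-1* was lower, at -1.73, -1.48 and -2.40 against -4.36, -2.53 and -3.01. *unc-86* was also lower, at -2.82, -2.88 and -2.61 against -3.12, -3.87 and -3.65. In the edgeR fit scaled to these markers 0 of the 30 were called, and *tdc-1* and *mec-17* had an unadjusted p under 0.05, as did 24.3% of all genes tested (edgeR adjusted p of *tdc-1* 0.132, the smallest of the 30).

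By chromosome, 9 of the 30 genes are X-linked and 21 autosomal. The X-linked genes had a median log2 fold change of 0.27 and the autosomal ones of 0.31, and 0 were called in either set. Markers of other tissues differed between the same libraries. The summed level of 9 body wall muscle markers was 7319 to 12299 CPM in N2 larvae and 14512 to 17648 CPM in the mutant, without overlap. Of these 9, 0 were called in edgeR, *myo-3* and *unc-22* in DESeq2 and *unc-22* in limma-voom. Of all genes tested, these tools called 2.6%, 9.79% and 2.72%. The sum of 8 germ line markers was 586 to 762 against 284 to 375 CPM, where *cgh-1* fell (1 of 7 tested). Most of both germ line sums was *cgh-1*, with means of 640 CPM in N2 larvae and 287 CPM in the mutant. Among the 7, only *cgh-1* had groups that did not overlap, so the sums mainly show the fall of this gene. Of the 7 log2 fold changes, 6 were negative and 1 positive. Pharynx, intestine, epidermis and glia markers overlapped between the groups in summed level. Of the 8 pharynx markers, DESeq2 called *myo-5*, and edgeR and limma-voom called 0. The epidermal collagen gene *rol-6* had 0 counts in all N2 libraries together and 176 in the mutant ones, at least 57.4-fold higher against a floor of 3 counts over the group, and was called higher in edgeR. Of the 5 epidermal markers tested, 2 log2 fold changes were positive and 3 negative. Mutant mothers had been picked as non-rollers from a balanced stock, and any part of that stock in the *rol-6* counts was not tested. The epidermal gene *dpy-5* was at 0 in every mutant library and the glial gene *hlh-17* in every N2 library. Neither passed the filter on low counts, so neither was tested. The part of these tissue differences in the levels of the neuronal genes was not tested.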

How the data were processed

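Deposited by the authors were raw counts (20392 genes, each with its length) and log2 values, which match log2 of the count scaled to 24838462 per library plus 8. Per the submitters' processing notes, the genome build was ce10. Aligner, counter, annotation and strand setting: not given in the sources used here. Positions and overlaps are those of the Ensembl annotation of WBcel235, looked up by gene ID, and symbols came from a table of gene names (30 of 30 members found; 1 symbol of the further lists was not). No sample column lacked a sample (0).

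Counts were tested in R 4.3.3 with edgeR 4.0.16: default expression filter (13460 genes), TMM factors, a model of group alone tested by quasi-likelihood F, and Benjamini-Hochberg adjustment over all genes at 0.05. Standard errors are the absolute log2 fold change divided by the square root of F, and 95% intervals use the t distribution with the fit's degrees of freedom. SDs of log2 CPM use a prior count of 2. The procedure was tested on simulated data. Alternatives used limma 3.58.1 and DESeq2 1.42.0, other scalings and filters, a replicate block, and each library left out. The common dispersion over 3 libraries a group came to 0.339. Floors of 3 counts, 0.11 to 0.144 CPM per library and 0.0397 CPM over the wild type, cover counting error only.

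The 30 genes and the lists were chosen with earlier results of these data known. Named genes are the 30, *mrg-1*, some of the genes overlapping the 30, the called genes of each list (at most 4), genes a count of 5 or fewer refers to, and some examples from the lists. No sequence is shown. Figures were drawn with matplotlib 3.10.9.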

Additional observations from a re-analysis of the deposited data

How the results depend on the processing

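The count of called members was 0 of 30 under all 17 alternatives. The log2 fold changes of 17 of the 30 genes kept their sign in all of them, and the other 13 changed sign in at least 1, for 41 changes of sign in all, each of a difference that was not called. The log2 fold change took the other sign with RLE size factors *glr-1* (0.0053); with library totals *glr-1* (0.24), *bas-1* (0.12), *mec-18* (0.30) and *ttx-3* (0.057); with pan-neuronal scaling *unc-25* (-0.36), *dat-1* (-0.24), *mec-4* (-0.095), *mec-7* (-0.093), *mec-12* (-0.082), *unc-3* (-0.041) and *lim-4* (-0.10); without a filter *glr-1* (0.0029); in limma-voom *unc-46* (0.17), *bas-1* (0.0026) and *ttx-3* (1.49); in limma-voom with quality weights *unc-46* (0.52) and *ttx-3* (1.03); with the replicate block *unc-46* (0.44) and *ttx-3* (1.05); without mitochondrial genes *unc-25* (-0.0033); in limma on the authors' log2 values *unc-46* (0.52), *glr-1* (0.23), *bas-1* (0.29), *mec-18* (0.29) and *ttx-3* (1.14); in DESeq2 *glr-1* (0.0054). With a library left out, the range included the other sign for *glr-1* (-0.23 to 0.33), *bas-1* (-0.34 to 0.31), *cho-1* (-0.12 to 0.76), *mec-12* (-0.00014 to 0.35), *ttx-3* (-0.70 to 1.45), *unc-25* (-0.31 to 0.37), *unc-46* (-1.08 to 1.44), *mec-18* (-0.19 to 0.23) and *mec-7* (-0.023 to 0.39). Over all genes, 350 were called, and 215 with library totals, 648 with pan-neuronal scaling, 734 without a filter and 1318 in DESeq2; with a library left out the count ran from 35 (mutant library 1) to 1043 (wild-type library 1), and was 82 without wild-type library 2, 67 without mutant library 2 and 44 without mutant library 3. The cause was not tested. Same-numbered wild-type and mutant libraries deviated from their group means with correlations of -0.0048, 0.0433 and 0.093, and not every library correlated best with its own number, so the numbers were not taken as pairs; with the replicate block 431 genes were called. The lowest wild-type counts of *nmr-1*, *tph-1*, *ttx-3*, *tbh-1* and *cat-2* were 0, 0, 4, 13 and 12. Other wild-type libraries held up to 94 counts of *nmr-1*, 160 of *tph-1* and 413 of *ttx-3*, and why libraries of this group differed was not tested. These lows fell in libraries 2 and 3. Of the wild-type libraries, library 1 had the smallest total but also the smallest mitochondrial share (10.6%, against 23.1% and 45.6%). The part of sequencing depth in these lows was not tested.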

Other observations

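Of the 24 markers of all neurons, 3 had an unadjusted edgeR p under 0.05, against 19.5% of all genes tested, and 0 were called. The groups did not overlap for 6 of the 24, against 26.4% of all genes tested. The proprotein convertase gene *egl-3*, of neuropeptide processing, was at 1146, 1012 and 1129.9 CPM in N2 libraries 1, 2 and 3 and 2042, 1543 and 1686 CPM in mutant libraries 1, 2 and 3 (log2 fold change 0.68 with SE 0.24, edgeR adjusted p = 0.149). The carboxypeptidase gene *egl-21*, of the same process, was at 501, 426 and 311 and 673, 623 and 692 CPM (log2 fold change 0.68 with SE 0.26, edgeR adjusted p = 0.174). In both, the groups did not overlap and the difference was not called. The SNAP-25 gene *ric-4*, of the synaptic vesicle fusion machinery, differed the other way, at 234.5, 495 and 692 and 266, 215 and 283 CPM (log2 fold change -0.90 with SE 0.35, edgeR adjusted p = 0.185), with wild-type library 1 within the mutant range. In the body wall muscle list the myosin heavy chain gene *myo-3* was at 373, 264 and 206 CPM in N2 larvae and 509, 622 and 547 CPM in the mutant (log2 fold change 0.99 with SE 0.28, edgeR adjusted p = 0.0802), not called in edgeR or limma-voom but called in DESeq2. *unc-22* was at 1632, 635 and 574 and 2282, 2445 and 1953 CPM (log2 fold change 1.23 with SE 0.37, edgeR adjusted p = 0.0958), called in DESeq2 and limma-voom but not in edgeR.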
